A study of Arabidopsis thaliana with 6 samples.

Results

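MPK3 encodes a mitogen-activated protein kinase of Arabidopsis thaliana, and a 302-nt stretch of its mRNA was probed for structure inside living leaves. The gene is AT3G45640 in the table of gene names for assembly TAIR10.1. Every base-call position filed under MPK3 was taken from each of the 6 libraries, which gave 302 of the 5550 positions measured over 19 amplicons. Of these, 161 were adenosine (A) or cytidine (C), the bases that carry the signal, and 141 were guanosine (G) or uridine, written T, which served as the control. None of the positions had been chosen for a measured value.

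The plants were 3 weeks old, were treated for 30 min with 1% dimethyl sulfate (DMS) or with water as the mock, and gave leaf material per the labels. Wild-type Columbia (Col) gave 2 DMS libraries and 1 mock, and plants named chr2 gave the same numbers. The labels name no chr2 allele and do not say that replicates were separate plants. A p-value here therefore reflects how far these libraries scatter, which may be technical. The series title concerns CHR2, the ATPase subunit of a SWI/SNF chromatin remodeller, and primary microRNA transcripts. MPK3 is a protein-coding transcript measured beside them, and its amplicon holds an open reading frame, as its label implies. RNA came from nuclei, so the molecules measured were the nuclear ones.

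MPK3 is the last kinase of a phosphorylation cascade that carries signals from immune receptors and from abiotic stress, and it also acts in stomatal patterning. DMS methylates the pairing face of A and C where no base pair or protein shields it. The group II intron reverse transcriptase used here reads through the methyl group and leaves a mismatch, so the share of mismatched base calls at A and C measures how open each base was. The G and T bases have no such reactive site under the usual conditions of the assay. Of 13 genes listed from the MAP kinase pathway, MPK3 was the only 1 among the amplicons, so nothing can be said of its upstream kinases or its targets.

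Position 1 is the 5′ end of the amplicon. The open frame began with the ATG at position 145, ran for 52 codons to the end of the amplicon, and was taken as the coding part. The bases before it are called the leader. No genome build was given for the files, so genome coordinates and exon boundaries are not printed. The outer 26 nt at each end had A and C mismatch rates with DMS of 0.0959% (5′) and 0.249% (3′) in Col, against 0.0693% and 0.287% in the Col mock. These ends were treated as primer sequence, which carries no record of the RNA, and were left out of all mean rates. Inside them lay 118 nt of leader and 132 nt of coding sequence, with 137 A and C and 113 G and T.

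The coding part is shown because 7 of the 8 most reactive bases of MPK3 lie in it. Capitals mark A and C whose mismatch rate was above mock in both genotypes in the test given below. The leader window, with the same use of capitals, is 1 of the 4 stretches of 25 nt wholly in the leader. It had the highest mean rate of these over the DMS libraries together. In chr2 alone the stretch from 102 to 126 was higher, with 3.18% against 3.04%.
MPK3 145 to 276, coding: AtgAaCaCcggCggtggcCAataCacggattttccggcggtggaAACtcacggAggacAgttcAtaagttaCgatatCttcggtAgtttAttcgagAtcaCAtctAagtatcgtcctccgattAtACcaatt
MPK3 77 to 101, leader: cCttcAgattcActACttcaAACct

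The mismatch rate of A and C was higher with DMS in both the leader and the coding part of MPK3. The mean mismatch rate over the 137 A and C was 2.50% and 2.58% in Col with DMS, and 2.87% and 2.78% in chr2 with DMS. The mocks stood at 0.0523% in Col and 0.0535% in chr2. The treated libraries and the mocks did not overlap, and the treated means were 2.54% ± 0.0605 (SD, n = 2) for Col and 2.83% ± 0.0591 (SD, n = 2) for chr2. All 4 DMS libraries were above both mocks at 126 of the 137 positions, and the same held at 37.8% of the A and C of all amplicons. A rate over 1% in all 4 DMS libraries was found at 89 positions, and no DMS library passed 1% at only 3.

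Those 3 were cytidines 153, 179 and 263, each predicted to be paired. The highest mock rate at any A or C inside the ends was 0.182%. Coverage at the 302 positions lay between 34667 and 161831 base calls in a library, so counting error is small beside the spread between libraries. The amplicons were made by PCR with no molecular identifiers mentioned, so coverage counts reads and not RNA molecules, and it says nothing of how much MPK3 mRNA was present.

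**Figure D1:**
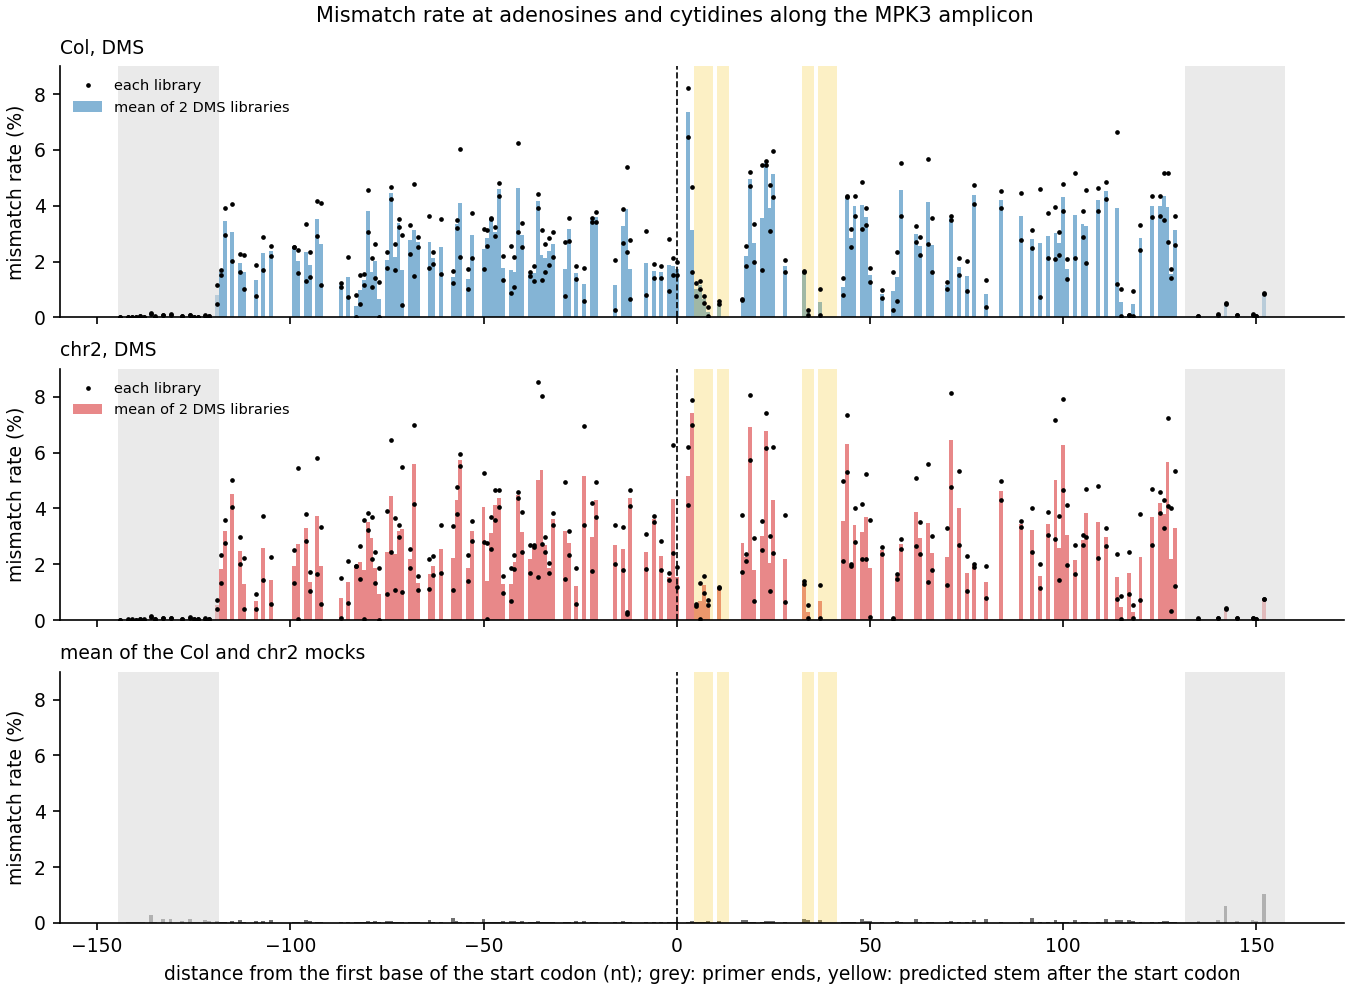
Mismatch rate (%) at each adenosine and cytidine of MPK3 against the distance from the start codon (nt), in Col with DMS, chr2 with DMS and the mean of the mocks. Bars are means of 2 libraries, dots are single libraries, grey marks the primer ends and yellow the predicted stem just after the start codon. High treated rates are found along the stretch between the primer ends, the mocks stay at or under 0.182% there, and the stem stands out as a gap.

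Adenosine and cytidine reacted about equally. The mean rate of the 77 adenosines was 2.62% ± 0.0455 for Col and 2.86% ± 0.216 for chr2 (SD, n = 2 each). The 60 cytidines had 2.44% ± 0.0798 and 2.78% ± 0.142. The ratio of adenosine to cytidine was 1.08 and 1.06 in the Col libraries and 1.12 and 0.938 in those of chr2, so chr2 replicates fell on both sides of 1. In the mocks adenosines had the lower rate, with ratios of 0.464 and 0.483.

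The control bases stayed low. Guanosines had 0.120% and 0.101% in Col and 0.136% and 0.115% in chr2 with DMS, against 0.0970% and 0.103% in the mocks. The lowest treated library lay between the mocks. Uridines had 0.199% and 0.190% in Col and 0.257% and 0.101% in chr2, against 0.0332% and 0.0362% in the mocks. By the mean, all 4 treated libraries were above both mocks for uridine, at rates far under those of A and C. The median uridine had 0.0462% and 0.0267% in Col and 0.0331% and 0.0255% in chr2, against 0.0308% and 0.0353% in the mocks. By the median, treated libraries thus lay on both sides of the mocks. The mean over A and C was 14.8 and 16.6 times that over G and T in Col and 13.7 and 26.2 times in chr2, whereas in both mocks it was the lower of the pair.

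**Figure D2:**
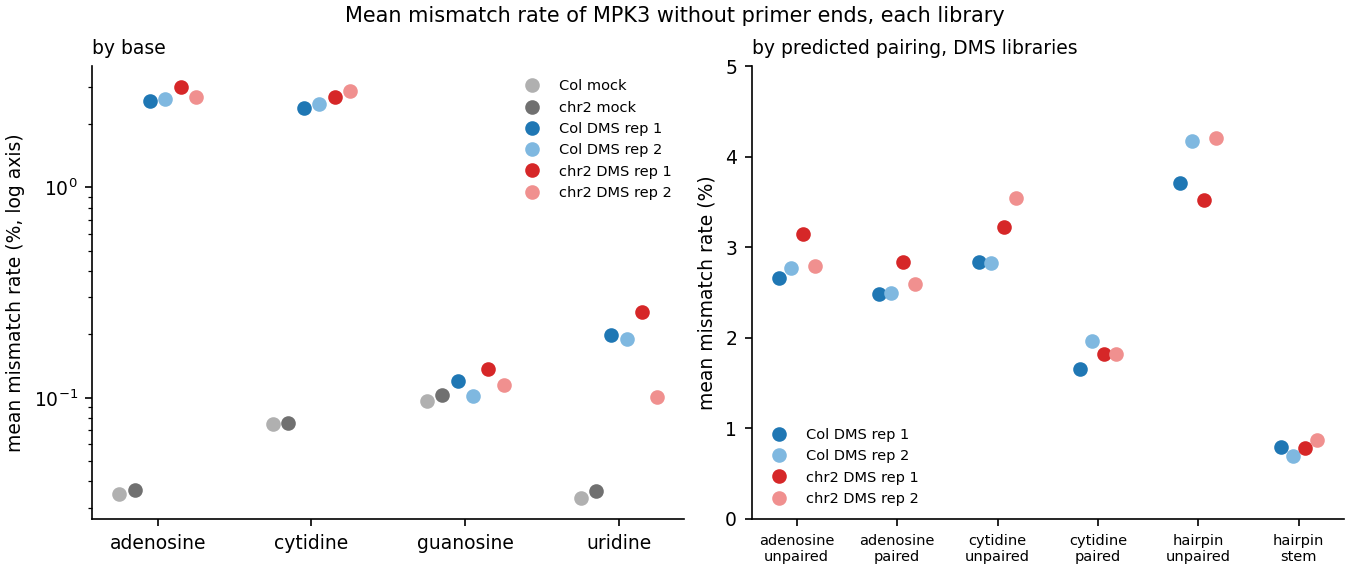
Left, mean mismatch rate (%, log axis) of each base of MPK3 in each of the 6 libraries. Right, mean rate (%) of adenosines and cytidines by predicted pairing in the 4 DMS libraries, with the hairpin after the start codon at the far right. Adenosine and cytidine sit above 2% with DMS and below 0.1% in mock, and the hairpin stem has the lowest means, between 0.69% and 0.872%.

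The base written in place of the reference also changed with DMS. Of the mismatches at adenosines, 69.4% and 75.0% read as T in Col and 70.7% and 72.7% in chr2, against 38.1% and 39.1% in the mocks. At cytidines, the share read as T was 47.9% and 49.6% in Col and 48.1% and 52.0% in chr2, below the 73.7% and 71.4% of the mocks. The share of cytidine mismatches read as G was 15.8% and 13.1% in Col and 15.9% and 14.9% in chr2, against 4.75% and 4.89%. For all 3 of these shares the 4 treated libraries lay apart from both mocks. The few mismatches at uridines shifted as well, with 49.8% and 40.2% read as A in Col and 51.9% and 51.3% in chr2, against 34.2% and 35.5% in the mocks.

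Position by position, 56 of 160 tested A and C of MPK3 were above mock in Col and 52 of 160 in chr2. The test was edgeR's quasi-likelihood test on mismatch counts with coverage as offset, at an adjusted p under 0.05 over the A and C of all amplicons. It called 13.2% of all A and C tested in Col and 13.0% in chr2, so MPK3 held a larger share than the whole set. An unadjusted p under 0.05 was reached at 117 MPK3 positions in each genotype. Over all amplicons it was reached at 642 of 2597 A and C in Col and at 675 of 2597 in chr2. Of the called positions, 50 were called in both genotypes, which is 89.3% of the Col calls and 96.2% of the chr2 calls. Both contrasts came from a single fit of all 6 libraries with a spread shared by the genotypes. Scatter in either genotype thus weighs on both, so this overlap is partly built in. Its counterpart over all amplicons is not given here. Of these 50, 33 were adenosines and 17 cytidines, and 25 lay in the leader and 25 in the coding part. None lay in the primer ends, which follows from their choice, since the ends had been set by their low A and C rates. The mean rates of the 50 ran from 0.778% to 6.25%, with a median of 3.11%.

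The number of calls depended on the tool, on the scaling and on every library. With the median ratio size factor that served the comparison of the genotypes, edgeR called 0 in Col and 0 in chr2, where 120 and 116 had an unadjusted p under 0.05. The adjusted p-values against mock given below are therefore those without a size factor. DESeq2 called 129 in Col (38.2% of all A and C tested) and 132 in chr2 (38.9%), and limma on log2 rates called 88 (19.4%) and 94 (20.3%). Without any 1 of the 4 DMS libraries edgeR called 0 in either genotype, where 103 to 115 in Col and 108 to 111 in chr2 had an unadjusted p under 0.05. None of the 138 G and T tested was above mock by edgeR (0% of all G and T tested in either genotype), and 6 in Col and 2 in chr2 had an unadjusted p under 0.05 with the higher rate in DMS. DESeq2 called 6 G and T in Col (1.83% of all) and 2 in chr2 (1.58%), and limma called 0 (0% of all).

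The highest mean over the 4 DMS libraries was at the codon just after the start codon, although in chr2 the other 7 of the 8 positions had higher means. Adenosine 148, the first base of codon 2, had 6.48% and 8.21% in Col and 4.13% and 6.19% in chr2. Its mocks had 0.0423% (95% Wilson interval 0.0295% to 0.0608%) and 0.0339% (0.0202% to 0.0569%). The treated libraries lay far above both, and the genotypes overlapped. The log2 ratio of DMS to mock was 7.43 in Col (edgeR adjusted p = 0.0366) and 7.24 in chr2 (adjusted p = 0.0350), and with the size factor the edgeR adjusted p rose to 0.0579 and 0.0531. The minimum free energy fold pairs this base with position 8 of the primer end, so its pairing partner could not be probed. The A of the start codon itself, at 145, was lower, with 1.52% and 1.99% in Col and 1.91% and 1.19% in chr2, and above mock in both (edgeR adjusted p = 0.0366 and 0.0392).

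Adenosine 149, its neighbour, had 4.66% and 1.62% in Col and 6.99% and 7.88% in chr2. Here the genotypes did not overlap, but the Col replicates lay further apart than the chr2 replicates. Neither genotype passed against mock (edgeR adjusted p = 0.0726 and 0.0595). The spread in that fit is shared by the genotypes, so the chr2 p-value also carries the Col scatter. Adenosine 164, in codon 7, had 4.69% and 5.19% in Col and 5.74% and 8.07% in chr2. Both genotypes were above mock (edgeR adjusted p = 0.0366 and 0.0347), and every chr2 value was above every Col value.

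Cytidine 168, at the wobble position of codon 8, was the most even of the 8. It had 5.59% and 5.45% in Col, 7.43% and 6.16% in chr2, and 0.0474% and 0.0484% in the mocks (edgeR adjusted p = 0.0366 and 0.0347). Both bases at 164 and 168 are predicted to be unpaired, with unpaired probabilities of 0.939 and 0.969. Adenosine 189, at the wobble position of codon 15, had 4.34% and 4.31% in Col and 5.30% and 7.35% in chr2 (edgeR adjusted p = 0.0366 and 0.0347).

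Cytidine 245, in codon 34, had 4.79% and 3.82% in Col and 7.92% and 4.65% in chr2, so the genotypes overlapped (edgeR adjusted p against mock = 0.0446 and 0.0392). Cytidine 216, at the wobble position of codon 24, had 3.65% and 3.49% in Col and 4.78% and 8.13% in chr2 (adjusted p = 0.0455 and 0.0407 by edgeR). It reacted although the fold pairs it with position 257. The remaining position of the 8 was cytidine 89, in lower case in the printed leader window, with 2.16% and 6.03% in Col and 5.96% and 5.52% in chr2. Replicate 1 of Col stood well below the other 3. With the spread shared by the genotypes, cytidine 89 passed against mock in neither (edgeR adjusted p = 0.0604 and 0.0572).

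The profile was also averaged in windows of 25 nt. Over 10 windows the mean A and C rate ran from 2.13% to 3.18% in Col and from 2.28% to 3.51% in chr2. The lowest Col means were at positions 52 to 76 and 177 to 201. The highest was at 227 to 251 in both genotypes, with 2.98% and 3.39% in Col and 4.25% and 2.78% in chr2. The chr2 libraries there lay on either side of the Col libraries. In the printed leader window, 77 to 101, the rates were 2.79% and 2.80% in Col and 3.37% and 2.72% in chr2.

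**Figure D3:**
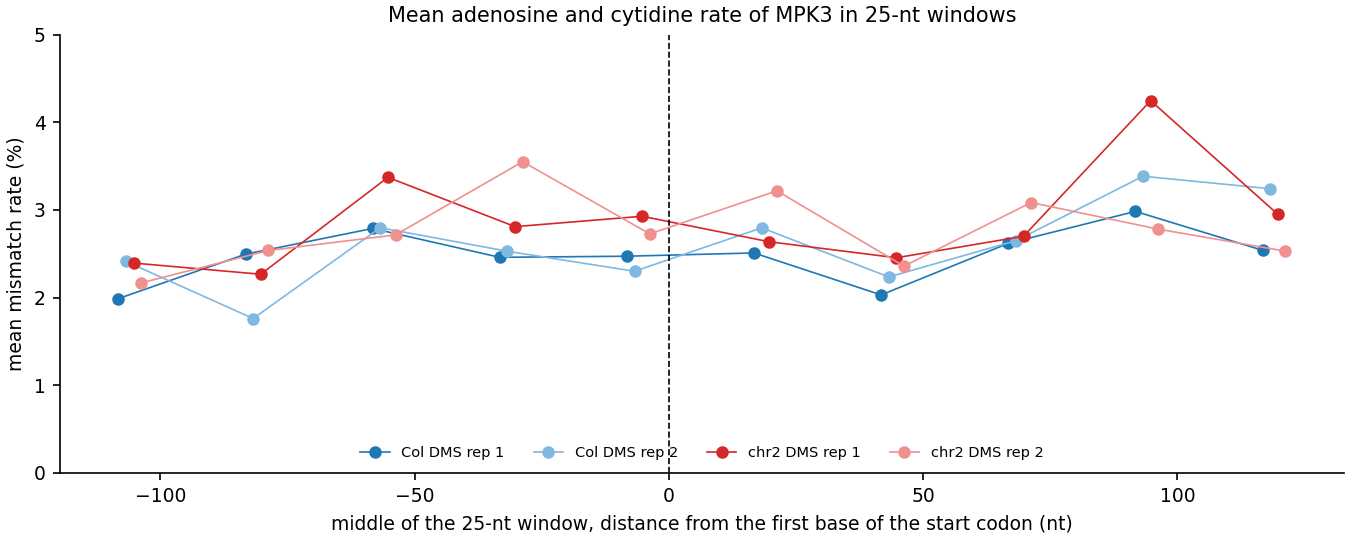
Mean adenosine and cytidine mismatch rate (%) of MPK3 in 10 windows of 25 nt, plotted at the middle of each window as distance from the start codon (nt), with 1 line for each DMS library. All means lie between 1.76% and 4.25%, and the order of the libraries changes from window to window.

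The leader and the coding part differed little. The leader's 71 A and C had 2.44% and 2.32% in Col and 2.75% and 2.75% in chr2, and the 66 of the coding part had 2.56% and 2.87% in Col and 3.00% and 2.82% in chr2. The ratio of coding to leader was 1.05 and 1.24 in Col and 1.09 and 1.03 in chr2, above 1 in 4 of 4 libraries, and 1.23 and 1.26 in the mocks. The highest treated ratio thus lay between those of the mocks.

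The rate was also set against the base on the 5′ side. An A or C that followed an adenosine averaged 3.00% ± 0.0268 in Col and 3.67% ± 0.0966 in chr2, and 1 that followed a guanosine had 2.08% ± 0.302 and 2.55% ± 0.286 (SD, n = 2 each). Those after a cytidine had 2.22% ± 0.0736 and 2.13% ± 0.328, the lowest in chr2, and those after a uridine 2.56% ± 0.353 and 2.62% ± 0.00893. The ratio of after adenosine to after guanosine was 1.32 and 1.60 in Col and 1.59 and 1.31 in chr2, against 0.908 and 0.962 in the mocks. Those flanked by A or C on both sides had 2.88% in Col and 3.36% in chr2, and those flanked by G or T on both sides 2.30% and 2.51%. Their ratio lay between 1.24 and 1.37 in the 4 DMS libraries and at 0.728 and 0.813 in the mocks.

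The measured rates were set against a fold predicted from the sequence alone, which used none of them. The minimum free energy fold of the 302 nt had -62.4 kcal/mol, with 162 nt paired in 19 helices. Of the 137 A and C inside the primer ends, 80 were predicted to be unpaired and 57 paired. The unpaired had 2.74% and 2.80% in Col and 3.18% and 3.14% in chr2. The paired had 2.15% and 2.28% in Col and 2.43% and 2.29% in chr2. The ratio was 1.28 and 1.23 in Col and 1.31 and 1.37 in chr2, above 1 in 4 of 4 treated libraries, and 0.920 and 0.917 in the mocks.

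Most of that difference sat with cytidine. Unpaired cytidines had 2.84% and 2.83% in Col and 3.22% and 3.54% in chr2, and paired ones 1.66% and 1.96% in Col and 1.82% and 1.82% in chr2. Their ratio was 1.71 and 1.44 in Col and 1.77 and 1.94 in chr2, against 0.768 and 0.686 in the mocks. For adenosine the ratio was 1.07 and 1.11 in Col and 1.11 and 1.07 in chr2, within or near the range of the mocks, 1.10 and 1.31. The area under the curve, the share of unpaired and paired couples in which the unpaired base had the higher rate, was 0.639 and 0.609 in Col and 0.605 and 0.628 in chr2. In the mocks it was 0.477 and 0.511. The genotypes overlapped (two-sided exact permutation over libraries, p = 0.667, where the smallest possible is 0.333). For cytidines alone the area was 0.717 (Col) and 0.756 (chr2), and for adenosines alone 0.558 and 0.515.

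The rates were also grouped by the pairing probability over the whole ensemble of folds. Over the 21 A and C with an unpaired probability under 0.1, the mean stood at 1.37% ± 0.331 for Col and 1.77% ± 0.0818 for chr2. The 34 between 0.1 and 0.5 had 2.58% ± 0.210 and 2.62% ± 0.0676, and the 41 between 0.5 and 0.9 had 2.85% ± 0.218 and 3.02% ± 0.291. The 41 at 0.9 and over had 2.79% ± 0.0207 and 3.34% ± 0.0794 (SD, n = 2 each). The lowest class stood apart from the others in all 4 libraries, and the upper 2 classes overlapped in Col. All 8 A and C of the hairpin stem described next belong to the lowest class, and the other 13 had 2.11% and 1.42% in Col and 2.46% and 2.22% in chr2.

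Single bases went against the minimum free energy fold in both directions by their mean rate. The paired bases with the highest rates were adenosine 148 and cytidine 216, given above, and adenosine 254, which is predicted to pair with position 219. Adenosine 254 had 3.81% and 4.64% in Col and 4.80% and 2.23% in chr2 (edgeR adjusted p against mock = 0.0486 and 0.0524). The unpaired bases with the lowest rates were adenosine 68, cytidine 262 and adenosine 58. Adenosine 68 had 1.26% in Col replicate 1 and 1.88% in chr2 replicate 1, but 0.0241% and 0.0197% in the replicates numbered 2, the level of the mocks (0.0236% and 0.0178%).

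Within the fold, 1 hairpin combined a low stem with reactive bases inside it in all 4 DMS libraries. It was picked out after its rates had been seen, so it is described without a test. It begins 5 nt after the A of the start codon and spans positions 150 to 186. Its stem has 8 base pairs, 7 of them G-C, in a helix of 5 pairs (150 to 154 with 182 to 186) and 1 of 3 pairs (156 to 158 with 178 to 180). Inside the stem lies a further helix of 2 G-C pairs (162 to 163 with 171 to 172), which was not counted in the stem. The same 16 stem bases pair when base pairs may span no more than 100 nt, and the highest unpaired probability among them is 0.0809. The sequence is shown with the stem bases in capitals.
MPK3 145 to 190, hairpin: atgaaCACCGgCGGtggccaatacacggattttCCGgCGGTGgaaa
The arms hold the longest exact repeat of the amplicon: the 10 bases CCGGCGGTGG occur at 152 to 161 and again at 178 to 187. The repeat, searched on both strands, was in 1 of the 19 amplicons (5.26%), MPK3 itself, and is given as a match of letters only.

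The 8 A and C of the stem had a mean of 0.798% and 0.690% in Col and 0.782% and 0.872% in chr2, with 0.0695% and 0.0801% in the mocks. All 4 treated means were above the mocks and far below the average of MPK3, at 0.320 and 0.267 of it in Col and 0.273 and 0.313 in chr2. Single values in the stem ran from 0.0433% to 1.67%. The 7 unpaired A and C enclosed by the stem had 3.72% and 4.17% in Col and 3.52% and 4.21% in chr2. Single values of these 7 ran from 0.646% to 8.07%, so the lowest fell within the range of the stem. The means of stem and enclosed unpaired bases lay apart in each library. Against mock, edgeR called 4 of the stem bases in Col and 3 in chr2, and 2 of the enclosed unpaired bases in each genotype. The ratio of the means, stem over enclosed unpaired, was 0.215 and 0.165 in Col and 0.222 and 0.207 in chr2, against 1.62 and 1.76 in the mocks. The 2 cytidines of the inner helix, 162 and 163, averaged 1.23% and 1.61% in Col and 2.05% and 2.95% in chr2. Although predicted to be paired, they lay above the stem mean and below the enclosed unpaired mean in each DMS library.

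The stem was low even among paired bases. Of the 10 helices with at least 3 A or C inside the primer ends, the stem's helices had mean rates over the 4 DMS libraries of 0.738% and 0.865%, the next lowest had 1.76% and the highest 3.27%. Among helices with fewer A or C, that of 200 to 201 with 296 to 297 was lower, with 0.497% at its 1 base. Those of 259 to 260 and 195 to 198 had 1.61% and 1.68% over 2 bases each. Cytidine 179 in the stem had 0.280% and 0.0879% in Col and 0.0640% and 0.531% in chr2, against mocks of 0.110% and 0.121%. Adenosines 148 and 149, just before the stem, and adenosine 164 and cytidine 168, inside it, were among the 8 most reactive bases of MPK3.

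**Figure D4:**
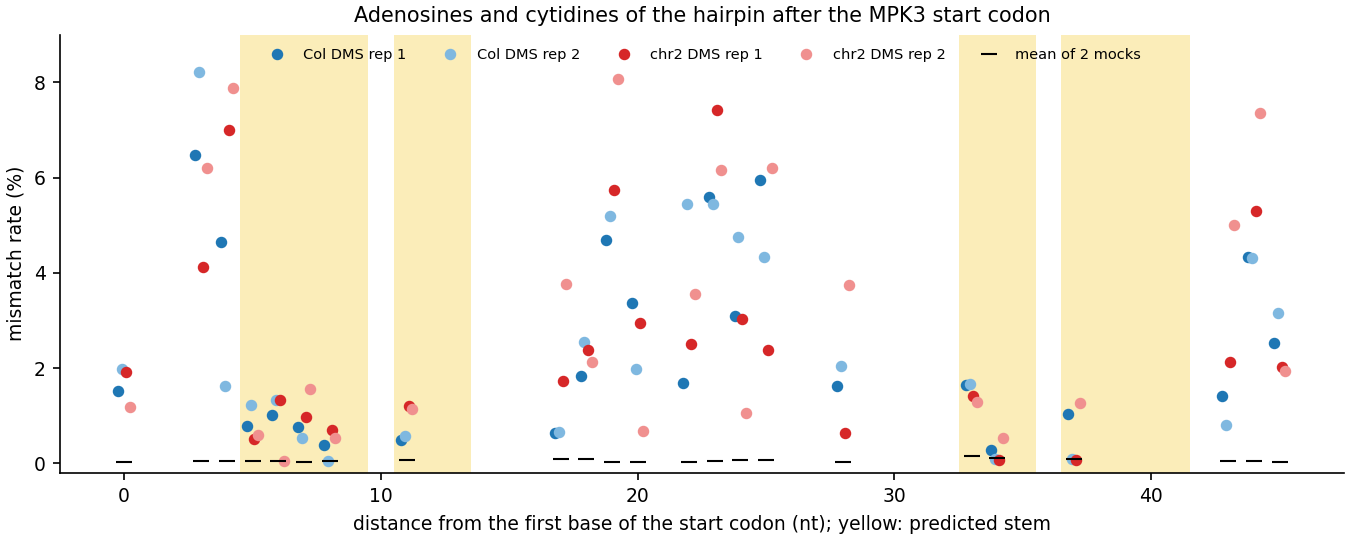
Mismatch rate (%) at the adenosines and cytidines from the start codon to 45 nt after it, for each DMS library, with the mean of the mocks as a dash. Yellow marks the predicted stem. Stem values lie between 0.0433% and 1.67%, and those of the enclosed unpaired bases between 0.646% and 8.07%, so single values overlap.

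Without the hairpin, chosen for its low stem, the gap between paired and unpaired bases had to shrink, and the values are given as a description. The 47 A and C paired elsewhere had 2.42% and 2.58% in Col and 2.72% and 2.50% in chr2. The 73 unpaired elsewhere had 2.65% and 2.67% in Col and 3.15% and 3.04% in chr2. Cytidines paired elsewhere had 2.43% ± 0.377 (Col) and 2.21% ± 0.186 (chr2), and unpaired ones 2.69% ± 0.0305 and 3.26% ± 0.191 (SD, n = 2 each). The Col libraries overlapped in these ranges for cytidine, with 2.16% and 2.69% paired against 2.67% and 2.71% unpaired, and the chr2 libraries did not. Adenosines paired elsewhere had 2.53% ± 0.00200 and 2.78% ± 0.149, and unpaired ones 2.63% ± 0.00791 and 2.94% ± 0.327.

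The genotypes were compared next. The chr2 mean over A and C was 1.11 times that of Col, and both chr2 libraries lay above both Col libraries (two-sided exact permutation over libraries, p = 0.333, the smallest that 2 against 2 allows). The other mRNA amplicons moved by the same order, with ratios of 1.14 in MYC2 and 1.14 in UBQ4. With the median ratio size factor the libraries had 2.49% and 2.67% in Col and 2.82% and 2.74% in chr2, still apart, with a ratio of 1.08. When each library was scaled by the mean rate of MYC2 and UBQ4, MPK3 had 2.70% and 2.72% in Col and 2.73% and 2.57% in chr2. The genotypes then overlapped, and the ratio turned to 0.977. How far DMS reached the RNA in each library was not measured separately, so that and a change in MPK3 structure cannot be told apart from the unscaled mean.

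By edgeR and limma no single A or C of MPK3 passed the test between chr2 and Col with DMS. edgeR called 0 of 160 (0% of all A and C tested), with an unadjusted p under 0.05 at 3, of which 1 was higher in chr2. limma called 0 of 160 (0% of all), with 8 at an unadjusted p under 0.05. DESeq2 called 10, 6 higher and 4 lower, against 11.7% of all A and C tested, so the MPK3 share was below the background. The response to DMS, each genotype against its own mock, differed at 0 positions by edgeR and by limma (0% of all), with 3 and 4 at an unadjusted p under 0.05, and at 0 by DESeq2 (2.27% of all), with 2. Every chr2 library was above every Col library at 24 of the 137 A and C inside the primer ends (19.3% over all amplicons), and below at 11 (13.6%). The chr2 mean was the higher at 77 of the 137.

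The positions nearest to a difference are given as values, since none passed. Cytidine 262, in codon 40, had 0.0759% and 0.0731% in Col, the level of the mocks (0.0961% and 0.112%), and 0.919% and 2.45% in chr2. The log2 ratio of chr2 to Col was 4.45 ± 0.88 (SE, edgeR adjusted p = 0.436). Cytidine 162, predicted to pair with position 172 inside the hairpin's loop, had 0.637% and 0.659% in Col and 1.73% and 3.76% in chr2 (edgeR adjusted p = 0.721). Adenosine 198 had 0.982% and 0.693% in Col and 2.63% and 2.37% in chr2 (edgeR adjusted p = 0.721).

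In the other direction, adenosine 132 in the leader, 13 nt before the start codon, had 2.35% and 5.40% in Col and 0.205% and 0.287% in chr2, with 0.0347% and 0.0258% in the mocks. Its log2 ratio was -4.03 ± 0.83 (SE, edgeR adjusted p = 0.482). Adenosine 201 had 0.249% and 1.63% in Col and 0.0647% and 0.0462% in chr2 (edgeR adjusted p = 0.721). Cytidine 222 had 4.06% and 4.73% in Col and 1.92% and 2.00% in chr2, a log2 ratio of -1.21 ± 0.56 (SE, edgeR adjusted p = 0.721). The Col and chr2 values lay apart at each of these 6 positions. They were picked by the smallest p of this same comparison, so their separation adds nothing to the test.

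For the control bases, edgeR called 0 of 138 G and T between the genotypes (0% of all), with 12 at an unadjusted p under 0.05. limma called 0 (0% of all) with 7, and DESeq2 called 30 of 138 (8.22% of all), so here the MPK3 share was above the background. DESeq2 thus called more control bases than A and C between the genotypes in MPK3. The G and T with the highest rates with DMS were uridine 296 and guanosine 286, both in the primer end, where the mocks were as high, and uridine 206. Uridine 206 had 1.74% and 0.767% in Col and 0.920% and 1.96% in chr2, against 0.0368% and 0.0618% in the mocks. All 4 treated libraries were above both mocks, yet it did not pass against mock (edgeR adjusted p = 0.630 and 0.617).

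The replicates of MPK3 were further apart than those of the other mRNAs. Over its 137 A and C, Pearson's r of the rates between replicates was 0.528 in Col and 0.358 in chr2, as a description over positions that share their libraries and their sequence. The same r was 0.954 and 0.888 in MYC2 over 141 positions, and 0.915 and 0.90 in UBQ4 over 109. Between a Col and a chr2 library of MPK3 it was 0.369 to 0.520, so a library resembled one of the other genotype about as well as its own replicate. The median A or C of MPK3 differed 1.46-fold between the Col replicates and 1.69-fold between those of chr2, against 1.14-fold and 1.23-fold in MYC2.

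Some bases read as reactive in 1 replicate and at the level of the mocks in the other. In Col, 3 of the 137 A and C were above 1% in 1 replicate and under 0.1% in the other, and in chr2 7 were. Cytidine 47 had 5.44% in chr2 replicate 1 and 0.0233% in replicate 2, while Col had 1.60% and 2.41%. Cytidine 260 had 1.03% and 0.0528% in Col and 0.0483% and 0.862% in chr2. Both were picked out with their values in view. Replicates lay within 2-fold of each other at 96 positions in Col and 85 in chr2.

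The control bases showed the same scatter. Of the 113 G and T inside the primer ends, 48 were above 0.2% in no DMS library, 40 in exactly 1, 23 in 2, 1 in 3 and 1 in all 4, and 5 were above it in a mock. Uridine 94, also chosen after its values were seen, had 2.23% in chr2 replicate 1 and between 0.027% and 0.0395% in the other 3 DMS libraries. The number of RNA molecules behind each library is not known, and its part in this scatter was not tested.

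**Figure D5:**
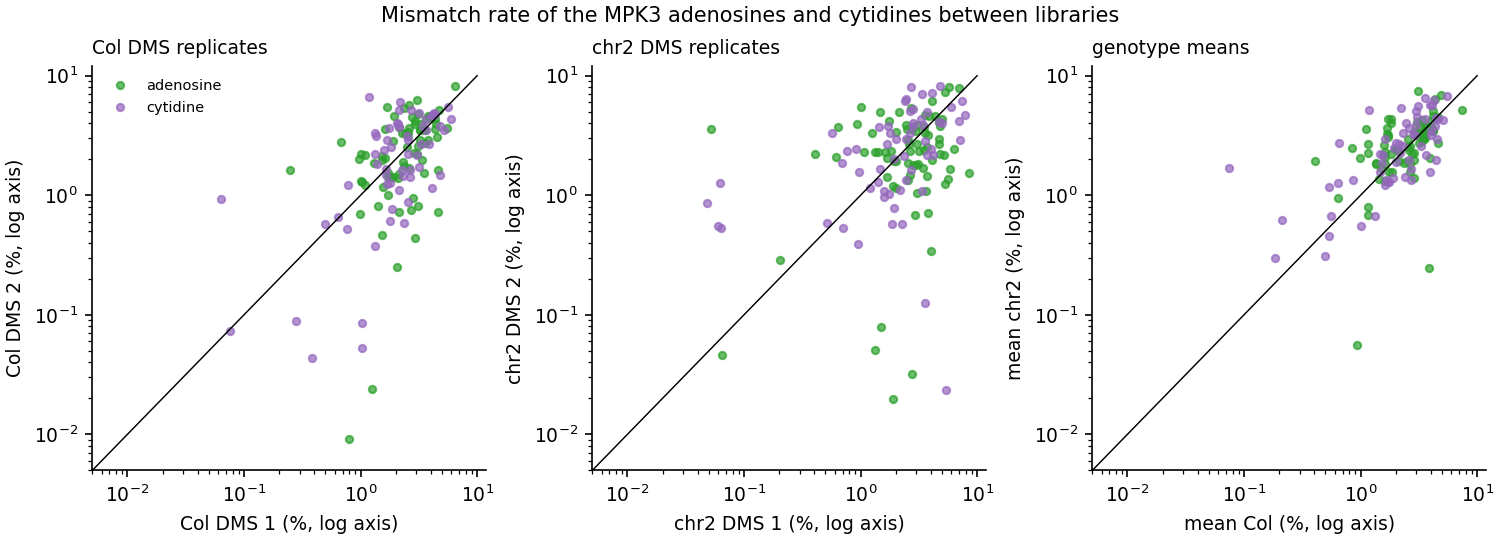
Mismatch rate (%) of each adenosine and cytidine of MPK3, both axes logarithmic, between the Col replicates, between the chr2 replicates and between the genotype means, with the line of equal values. Most points lie between 1% and 8%, and 3 positions in Col and 7 in chr2 are above 1% in 1 replicate and under 0.1% in the other.

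Among the 19 amplicons MPK3 had the highest A and C rate in Col by the mean of the libraries, and rank 2 in chr2. The order changed between libraries. In Col replicate 1 MPK3 had 2.50% and miR156b 2.49%, and in Col replicate 2 miR393b was higher (2.89% against 2.58%). In chr2, with 2.87% and 2.78% in MPK3, miR390a was higher in both replicates (3.53% and 3.34%). In chr2 replicate 2 miR165a was higher as well (3.72%). The amplicons whose mean rates over the 6 libraries were most like it were MYC2 (root mean square distance 0.0925 on the log2 scale), miR156b (0.240) and miR160a (0.315). MYC2 encodes a transcription factor of jasmonate signalling and had 2.39% ± 0.0911 in Col and 2.71% ± 0.0999 in chr2. UBQ4, a polyubiquitin gene, had 2.30% ± 0.0141 and 2.64% ± 0.00959 (SD, n = 2 each). With a mean as high, MPK3 had the smaller share of tested A and C above mock in the edgeR test in Col: 35.0%, against 72.7% in MYC2 and 65.4% in UBQ4. The pri-miRNA amplicon miR156b had 2.44% ± 0.0635 in Col (SD, n = 2) and 0 of 112 A and C called.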

How the data were processed

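The values deposited by the authors are counts of the 4 bases read at every amplicon position, beside the reference base, per the file headers. Per the labels' protocols, nuclear RNA was reverse transcribed with gene-specific primers and TGIRT-III, amplified by PCR, mixed in equal amounts and fragmented. Tools listed are BWA, Picard, cutadapt and SAMtools 1.5, per the submitters' processing notes. What each did, and the genome build, is not given in the sources used here. Totals were 342449353 to 453222421 base calls in a library, of which MPK3 held 4.16% to 6.79%.

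The mismatch rate is the share of base calls other than the reference. Tests covered all 19 amplicons and took positions with 100 or more base calls in every library, 10 or more mismatches and mock rates up to 5%. DMS was compared with mock by edgeR 4.0.16 in a fit of all 6 libraries, with log coverage as offset and a spread shared by the genotypes. The comparison of chr2 with Col used the 4 DMS libraries with a median ratio size factor (0.966 to 1.02). A and C were adjusted apart from G and T (Benjamini-Hochberg, 0.05). Values of 1 per library were compared by exact permutation. Folds came from ViennaRNA 2.7.2, without the measured rates. Alternatives were DESeq2 1.42.0, limma 3.58.1 on log2(rate + 0.0001), other filters, scalings and folds, a block for the replicate number, and the omission of each DMS library. The edgeR test was also run on counts simulated with a fixed spread, and no result here rests on that run. R 4.3.3, Python 3.11.15 and SciPy 1.17.1 were used.

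MPK3, its lists and its primer ends were chosen with earlier results of these data known. The positions named are the 8 highest A and C, the 3 with the smallest p in each direction between the genotypes, the 3 highest G and T, any above the mock limit (there were 0), and the 3 A and C that went most against the fold on either side. Positions outside this rule are marked in the text or belong to the hairpin. The amplicons named are MYC2, UBQ4, the 3 nearest in mean rate and any with a higher mean than MPK3 in a DMS library. PCR reads are not independent molecules, so Wilson intervals cover counting error only.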

Additional observations from a re-analysis of the deposited data

Results flagged for a closer look

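Of codon positions 1 and 3, the one with the higher mean rate differed between the genotypes. Over the coding part of MPK3, the mean rate of the 21 A and C at codon position 3 divided by that of the 23 at codon position 1 was 0.853 and 0.772 in Col with DMS and 1.16 and 1.14 in chr2 with DMS. Both Col libraries thus lay below 1 and both chr2 libraries above it, which drew attention to the ratio, and the mocks had 1.10 and 1.11. By the median this did not hold, since chr2 replicate 2 had 2.00% at position 3 and 2.18% at position 1. Codon position 2 had means of 2.70% in Col and 3.16% in chr2, the highest of the codon positions in chr2. The mean at position 1 was 3.00% ± 0.425 in Col and 2.59% ± 0.375 in chr2, and at position 3 it was 2.42% ± 0.174 and 2.99% ± 0.470 (SD, n = 2 each), so the means themselves overlapped between the genotypes at position 1. A two-sided exact permutation over libraries gave p = 0.333, the smallest it can give, and 19 such ratios were computed, so the difference was not tested beyond that.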

How the results depend on the processing

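The count of MPK3 A and C above mock was 55 or 56 in Col and 52 in chr2 under other coverage, mismatch and mock limits, and 60 and 59 without the primer ends. DESeq2 gave 129 and 132 and limma 88 and 94, and a median ratio size factor gave 0 and 0, where 120 and 116 had an unadjusted p under 0.05 by edgeR. Leaving out any DMS library gave 0 in both genotypes, from a fit with fewer libraries. The cause of the other differences between tools and scalings was not tested. Between the genotypes only DESeq2 moved a count, to 10 A and C and 30 G and T, and against mock to 6 G and T in Col and 2 in chr2. The ratio of the chr2 mean to the Col mean reversed to 0.977 with the size factor from MYC2 and UBQ4, and was 1.09 to 1.13 without each DMS library.

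The area under the curve moved to 0.650 in Col and 0.635 in chr2 with the partition-function fold, 0.588 and 0.551 with pairs of at most 100 nt, 0.558 and 0.515 for adenosines and 0.717 and 0.756 for cytidines, and was 0.609 to 0.639 and 0.605 to 0.628 without each library. The labels do not say that replicate numbers pair the samples, and the deviations of same-numbered libraries had a correlation of -0.0292 over the MPK3 A and C. With the replicate number as a block edgeR called 0 A and C and 0 G and T, and the ratio within numbers had a geometric mean of 1.11 (1.15 and 1.08), so the block changed no call. The positions named for a high rate were each followed through every alternative against mock, those without 1 DMS library included. Counted as cases of 1 position under 1 alternative, 35 lost a call in Col and 30 in chr2. A call was gained in 4 and 7 cases, and 78 and 80 stayed the same. For the positions named between the genotypes, 6 cases gained a call and 84 stayed the same. Every position had at least 34667 base calls, which are PCR reads; the number of RNA molecules behind them is not known, and 2 libraries a group limit every comparison.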
